A study of Homo sapiens with 10 samples.

Results

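H3K27ac, the acetylation of histone H3 that marks active promoters and enhancers, was examined at 6 genes of the MET and AXL receptor families. Receptors of these families can carry growth signals past a blocked EGFR, and they form a set for that reason. The receptors were MET and MST1R (also called RON), which form the MET family, and AXL, MERTK and TYRO3, which form the TAM family. GAS6 was the only ligand in the set. Every region of the deposited annotated table whose gene symbol was 1 of these 6 was taken, with no threshold on its values. This gave 64 regions of 502 bp, of 67387 annotated regions and 169637 regions counted in all. MET had 28 regions, MERTK 13, AXL 9, MST1R 6, GAS6 6 and TYRO3 2. Of the 64 regions, 17 lay within 1 kb of an annotated transcription start site, here called promoter regions, and 47 lay elsewhere (27 in introns, 12 between 1 and 3 kb from a start site, 4 in distal intergenic sequence, 3 in exons and 1 in a 5′ UTR). All 64 passed the filter on low counts.

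MET is activated by hepatocyte growth factor and RON by macrophage-stimulating protein, and both receptors signal through the RAS-MAPK and PI3K pathways that EGFR also uses. The TAM receptors bind GAS6 or protein S, vitamin K-dependent ligands that also bind phosphatidylserine on membranes. In EGFR-mutant lung cancer, amplification of MET and activation of AXL are known routes around EGFR inhibitors. H3K27ac measures the state of the gene's regulatory DNA and not its mRNA or protein.

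The cells were H1975, an established human lung adenocarcinoma line with mutant EGFR, so all groups share that genotype. DMSO controls had no drug for 21 days and were then given DMSO for 3 days. Drug-tolerant persister cells (osi DTP) were held for 24 days in osimertinib, which inhibits mutant EGFR, at 500 nM. The last group, osi DTP + AZD5153, had osimertinib at 500 nM for 21 days and after it AZD5153, a bivalent inhibitor of BET bromodomains, at 150 nM for 3 days, and the labels do not say whether osimertinib was kept on in those days. Each group had 3 libraries, which the labels call biological replicates, and 1 pooled input library served as the background.

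Total counts were 6263443 to 10463351 per H3K27ac library and 1870885 in the input, and the 64 regions held 3294 to 9761 of the reads of an H3K27ac library. Replicate 3 of osi DTP + AZD5153 stood apart: its Spearman correlation with its replicates across regions was 0.445 and 0.367, against 0.805 to 0.893 for the other pairs within a group. The share of annotated counts in promoter regions was 66.7% in this library and 59.8% in replicate 2 of osi DTP, against 40.3% to 45.9% in the other 7 libraries. Calls on the 64 regions that changed without replicate 3 of osi DTP + AZD5153 are therefore also given. That library enters the comparison of osi DTP with DMSO only through the filter, the scaling and the shared estimate of the spread. All 6 epithelial markers (EPCAM, CDH1, KRT7, KRT8, KRT18 and KRT19) and all 3 lung markers (NKX2-1, NAPSA and SFTPB) had a promoter region, at the 4.42 to 99.6 percentile of genes. SFTPB was the lowest of these. Percentiles here and below rank genes by their highest promoter region, among the 12295 genes that had one. Of 6 markers of other cell types, PTPRC, CD3E, PECAM1 and ALB had no promoter region, while CDH5 and COL1A1 had one, at the 47.9 and 47.5 percentile. The summed CPM of these 2 regions was 15.9 to 25.2 in DMSO, 29.2 to 66.9 in osi DTP and 19.8 to 47.9 in osi DTP + AZD5153. COL1A1 had 9.07, 9.09 and 4.33 CPM in DMSO, 14.8, 44.5 and 14.7 in osi DTP and 9.42, 14.3 and 32.7 in osi DTP + AZD5153, and its adjusted p in osi DTP was 0.0925, or 0.0114 without replicate 3 of osi DTP + AZD5153. The part of such markers in the results below was not tested.

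The 250 bases upstream of the RefSeq start sites of GAS6, MET, MST1R and TYRO3 are shown because H3K27ac beside the GAS6 start rose in treated cells, H3K27ac at the MET start was high in all groups, and regions upstream of the MST1R and TYRO3 starts had lower values in treated cells. They are written 5′ to 3′ on the gene's strand, in coordinates of GRCh38.p14, the assembly that hg38 names. Capitals mark matches to GGGCGGG, the SP/KLF motif, and to TGANTCA, the AP-1 motif, on either strand.
GAS6, chr13:113864077-113864326, minus strand: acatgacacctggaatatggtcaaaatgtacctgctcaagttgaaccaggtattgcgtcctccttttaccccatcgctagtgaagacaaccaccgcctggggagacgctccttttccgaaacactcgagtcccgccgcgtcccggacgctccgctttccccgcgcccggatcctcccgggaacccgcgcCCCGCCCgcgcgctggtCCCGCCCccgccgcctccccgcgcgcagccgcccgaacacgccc
MET, chr7:116671946-116672195, plus strand: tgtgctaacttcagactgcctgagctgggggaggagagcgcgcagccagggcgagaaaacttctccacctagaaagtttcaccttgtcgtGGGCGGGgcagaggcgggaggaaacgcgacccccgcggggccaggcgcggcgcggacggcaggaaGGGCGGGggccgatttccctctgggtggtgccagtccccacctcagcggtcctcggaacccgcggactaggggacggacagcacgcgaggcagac
MST1R, chr3:49903874-49904123, minus strand: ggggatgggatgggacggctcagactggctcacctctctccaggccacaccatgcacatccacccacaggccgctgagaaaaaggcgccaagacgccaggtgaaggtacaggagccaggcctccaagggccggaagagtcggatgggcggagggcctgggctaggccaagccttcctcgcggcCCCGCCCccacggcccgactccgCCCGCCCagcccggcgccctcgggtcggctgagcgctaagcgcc
TYRO3, chr15:41558962-41559211, plus strand: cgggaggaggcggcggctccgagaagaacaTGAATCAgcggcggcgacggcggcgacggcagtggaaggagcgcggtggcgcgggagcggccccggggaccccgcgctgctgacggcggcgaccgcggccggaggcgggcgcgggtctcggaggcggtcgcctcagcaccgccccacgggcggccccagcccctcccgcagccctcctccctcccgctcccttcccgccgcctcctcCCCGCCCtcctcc

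The SP/KLF motif lay at 61 and 44 bp upstream of the GAS6 start, at 160 and 95 bp upstream of MET, at 67 and 44 bp upstream of MST1R and at 13 bp upstream of TYRO3, counted from the motif's first base. MERTK had 3 matches, and neither AXL window had one. Of 35116 RefSeq promoter windows of this length, 31.5% held the motif. The AP-1 motif was found in 1 of the 8 windows of the 6 genes, the TYRO3 window printed above, against 6.57% of all windows. The TEAD motif GGAATG was found in 1 of the 8, the second AXL window, against 11.9% of all windows. No match overlapped a match of another motif, and GC content of the 4 windows shown was 66.8% to 80.0%, against a median of 58.0% over all windows. A match is a description of the letters and says nothing about which factor was bound.

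In osi DTP against DMSO, the GAS6 promoter rose and regions inside MET and MERTK fell, while the MET promoter and all regions of AXL, MST1R and TYRO3 did not pass the test. Of the 64 regions, 5 were called, 2 higher and 3 lower (edgeR quasi-likelihood test with Benjamini-Hochberg adjustment over 157919 regions, threshold 0.05). That is 7.81%, against 10.7% of all regions tested (5.58% higher and 5.13% lower) and 14.2% of annotated regions. Among promoter regions 11.8% of the members were called, against 4.63% of all annotated ones, and among other regions 6.38%, against 19.6%. These differences were not tested. The signs leaned down, with 45 log2 fold changes below 0 and 19 above, and the median was −0.57 against 0.15 over all regions. Without replicate 3 of osi DTP + AZD5153, 18 of the 64 were called, or 28.1% against 26.8% of all regions and 31.5% of annotated regions. These were 5 higher regions of GAS6 and 13 lower ones, 8 at MET, 3 at MERTK and 2 at MST1R. The number of calls was 0 without replicate 2 of DMSO and 0 without replicate 2 of osi DTP. It was 3 without replicate 1 of DMSO, 2 without replicate 3 of DMSO and 3 without replicate 3 of osi DTP. Between 0.701% and 5.04% of all regions were called in these 5 fits.

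In osi DTP + AZD5153 against DMSO, 9 of the 64 regions were called, with the same 2 GAS6 regions higher, 5 MET regions lower and 2 MST1R regions lower. That is 14.1%, against 18.1% of all regions (9.05% higher and 9.01% lower) and 21.8% of annotated regions. The median log2 fold change was −0.17 against 0.23 over all regions. Without replicate 3 of osi DTP + AZD5153, 18 were called, or 28.1% against 35.7% of all regions and 36.3% of annotated regions. The 4 higher ones were 2 at GAS6 and 2 at MET, and the 14 lower ones were 7 at MET, all 6 of MST1R and 1 at TYRO3. Without replicate 1, 2 or 3 of DMSO the number was 5, 2 and 2, and without replicate 1 of osi DTP + AZD5153 it was 4. These fits called 10.6%, 5.16%, 6.14% and 10.2% of all regions, in the same order.

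In osi DTP + AZD5153 against osi DTP no member region was called by edgeR, and neither was any other region (0% of all tested). An unadjusted p under 0.05 was seen at 3 of the 64 and at 7013 of all regions, and DESeq2 also called none of the 64. Without replicate 3 of osi DTP + AZD5153 the count stayed at 0 of 64, and 0.122% of all regions were called (0.0637% higher and 0.0587% lower). In that fit an unadjusted p under 0.05 was seen at 21 of the 64 and at 32444 of 161758 regions. Members above osi DTP in all libraries, with no overlap between the groups, were 4 of 64 (background 2.83%), and 1 lay below (background 5.4%). The comparisons share libraries with each other, so their values are given side by side below.

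**Figure D1:**
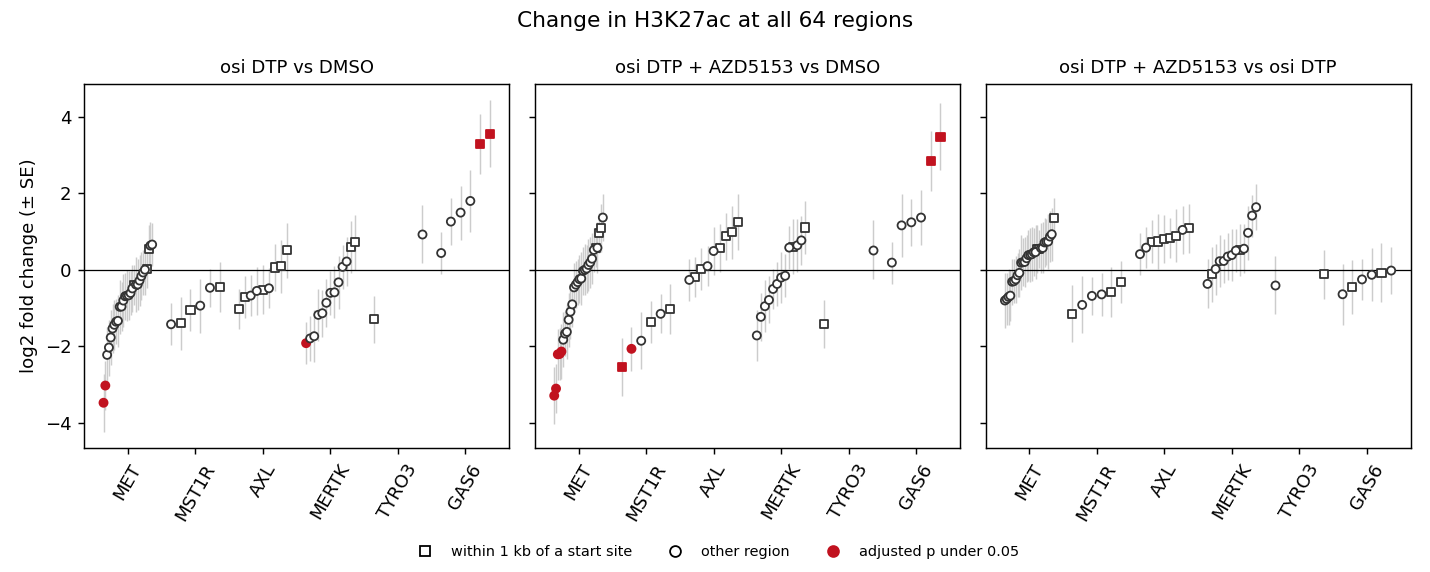
Log2 fold change of H3K27ac (± SE, edgeR, y axis) at all 64 regions, by gene (x axis) and comparison (panels), with squares for promoter regions, circles for other regions and red fill for an adjusted p under 0.05. The red points are the 2 GAS6 promoter regions at the top of the left and middle panels, MET and MERTK regions at the bottom left, MET and MST1R regions at the bottom of the middle panel, and none in the right panel.

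MET kept its promoter mark in all groups and lost H3K27ac in a stretch of its 3′ part. The gene lies on the plus strand of chromosome 7 (116672196 to 116798377, RefSeq), and its regions formed 5 clusters separated by more than 5 kb. This grouping was made after the values had been seen and carries no test. The highest promoter region, chr7:116672375-116672876, 0.4 kb into the gene, was at the 92.1 percentile of promoter regions over genes. It had 29.8, 44.8 and 31.6 CPM (counts relative to the library total, scaled with TMM, as for all CPM below) in DMSO, 21.3, 52.3 and 34.2 in osi DTP and 41.2, 63.2 and 53.1 in osi DTP + AZD5153, in order of replicate. The groups overlapped, and the log2 fold changes from DMSO were 0.02 ± 0.49 (SE, adjusted p = 0.986) and 0.57 ± 0.49 (0.467). The sign of the first of these differed between fits. The other region at this start, 0.1 kb upstream and covering the whole MET sequence printed above, reached 72.6 CPM in replicate 2 of osi DTP and 78.9 in replicate 3 of osi DTP + AZD5153, the libraries with the highest promoter shares. Its other 7 values were 13.8 to 40.1. Whether the promoter share has a part in these values was not tested.

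In introns of MET, 16 regions between 14.8 and 45.0 kb from the start formed the next pair of clusters, and none was called on all 9 libraries. With replicate 3 of osi DTP + AZD5153 left out, the region at 38.9 kb was called lower in osi DTP (−1.36, adjusted p = 0.0299) and in osi DTP + AZD5153 (−1.37, 0.0450), and the region at 44.4 kb higher in osi DTP + AZD5153 (1.71, 0.0111). Input at these regions was 9.62 and 13.9 CPM without TMM scaling, above every control. The highest region outside promoters, chr7:116692277-116692778, 20.3 kb into the gene, had 27.1, 53.8 and 35.1 CPM in DMSO, 18.2, 31.0 and 39.8 in osi DTP and 38.0, 72.5 and 5.41 in osi DTP + AZD5153. Replicate 3 of the last group was by far its lowest, as at most regions of these clusters. The 6 regions at 14.8 to 21.2 kb summed to 156.2 ± 46.5 CPM in DMSO (mean ± SD, n = 3), 120.9 ± 48.3 in osi DTP and 155.3 ± 121.7 in osi DTP + AZD5153, with 35.0 in replicate 3. A promoter region of an inner start site, 52.4 kb into the gene, had 4.59 to 5.26 CPM in osi DTP, 6.03 to 6.62 in DMSO and 6.76 to 17.2 in osi DTP + AZD5153, with no overlap between the groups. It was 1 of the 3 members with an unadjusted p under 0.05 in osi DTP + AZD5153 against osi DTP (log2 fold change 1.36 ± 0.53, adjusted p = 1). Against DMSO its adjusted p in osi DTP + AZD5153 was 0.225, or 0.0277 without replicate 3.

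The 3′ cluster of MET held 9 regions, 100.3 to 108.5 kb from the start and inside the gene. Its strongest fall was at chr7:116772220-116772721, a region placed 2 to 3 kb from an inner start site. This region had 14.2, 32.5 and 17.7 CPM in DMSO, 2.39, 0.974 and 2.32 in osi DTP and 4.01, 2.09 and 0.193 in osi DTP + AZD5153. All treated libraries lay far below the lowest control. The log2 fold change was −3.48 ± 0.75 in osi DTP (adjusted p = 0.00966) and −3.29 ± 0.75 in osi DTP + AZD5153 (adjusted p = 0.00737). The first call did not hold without DMSO replicate 2 (adjusted p = 0.0735), replicate 2 of osi DTP (0.0665) or replicate 3 of osi DTP (0.0530), and the second was kept in all 9 fits that left out 1 library.

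The neighbouring intronic region, chr7:116773060-116773561, had 10.2, 18 and 14 CPM in DMSO, 2.2, 0.974 and 1.91 in osi DTP and 2.90, 0.698 and 1.16 in osi DTP + AZD5153. Again every treated library was lower than every control. Its log2 fold changes were −3.03 ± 0.64 (adjusted p = 0.00832, or 0.0641 without replicate 2 of DMSO and 0.0551 without replicate 2 of osi DTP) and −3.11 ± 0.64 (adjusted p = 0.00451, kept in all 9 such fits). Over the whole cluster, 8 of 9 regions lay below DMSO in osi DTP, and 8 of 9 in osi DTP + AZD5153, without overlap (background 18.9% and 19%). The exception at 108.5 kb overlapped in both. The summed CPM of the cluster was 118.0, 205.2 and 135.3 in DMSO, 31.1, 28.8 and 62.2 in osi DTP and 46.4, 70.0 and 8.70 in osi DTP + AZD5153. The ratio of the group means was 0.266 and 0.273, while the cluster at 14.8 to 21.2 kb of the same gene gave 0.774 and 0.994.

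In osi DTP + AZD5153 against DMSO, 3 further regions of this cluster fell. They were chr7:116774849-116775350 (in an exon, log2 fold change −2.21, adjusted p = 0.0295), chr7:116779164-116779665 (intron, −2.20, 0.0326) and chr7:116774121-116774622 (intron, −2.14, 0.0475). Input there was 10.7, 10.7 and 5.3 CPM without TMM scaling, close to the highest controls, which had 10.66, 9.66 and 5.13 CPM with TMM scaling. The scales differ, so the order of input and highest control is not certain. Each of these calls was lost on leaving out DMSO replicate 1 (adjusted p = 0.0707, 0.0662 and 0.0960), replicate 2 of DMSO (0.0754, 0.103 and 0.125), replicate 3 of DMSO (0.105, 0.0975 and 0.136) and replicate 1 of osi DTP + AZD5153 (0.0771, 0.114 and 0.114). At 116774121 it was also lost without replicate 1 or 3 of osi DTP (0.0700 and 0.0521). In osi DTP the same regions had log2 fold changes of −1.53, −1.44 and −1.33 and did not pass the test (adjusted p = 0.135, 0.171 and 0.232). With replicate 3 of osi DTP + AZD5153 left out, the first and the second passed in osi DTP (0.0254 and 0.0393). The regions at 104.0, 105.3 and 106.0 kb then passed too (−1.77, −2.04 and −2.23, adjusted p = 0.00404, 0.00203 and 0.000953), and that at 106.0 kb also in osi DTP + AZD5153 (−1.32, 0.0451).

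**Figure D2:**
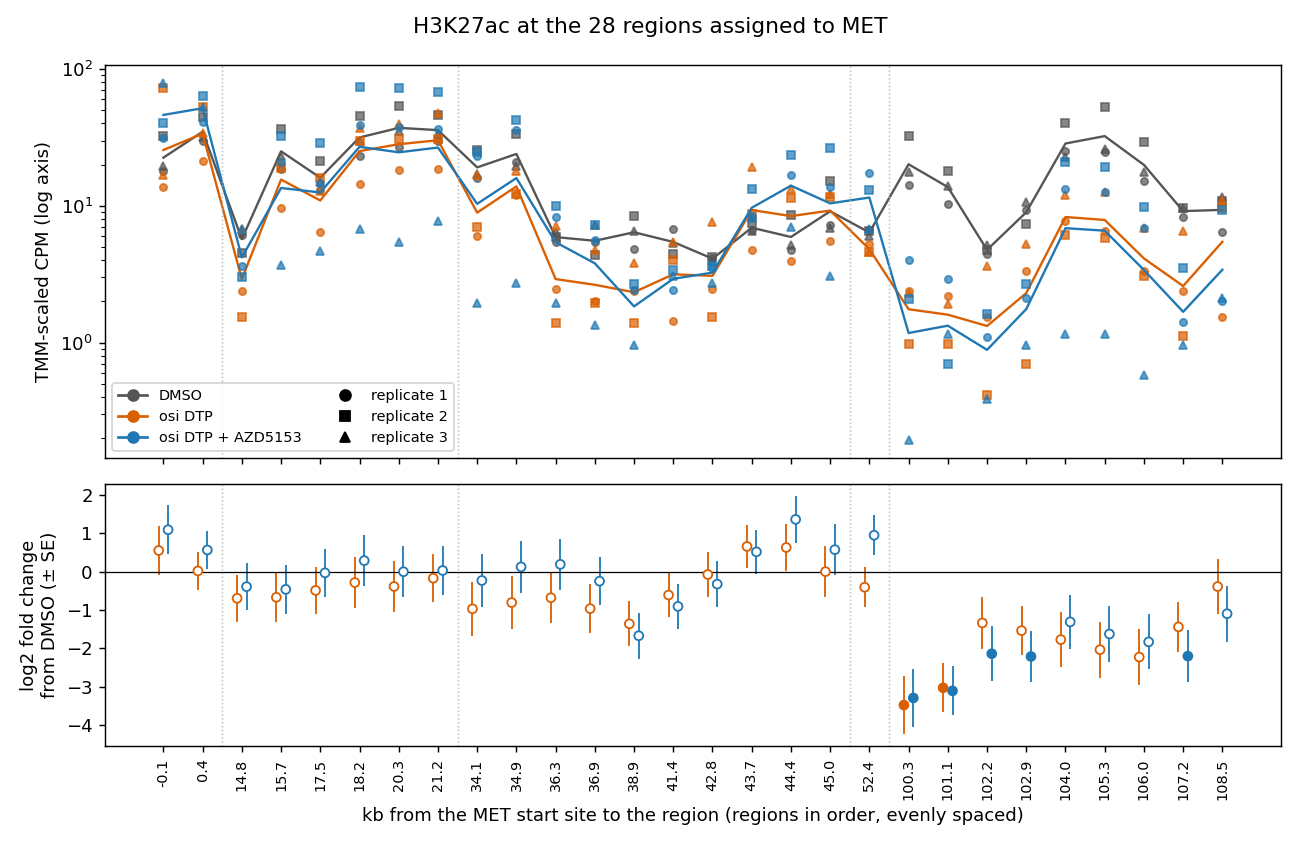
H3K27ac at the 28 regions assigned to MET, in order of distance from the start (x axis, kb, evenly spaced). The upper panel shows TMM-scaled CPM on a log axis, with a point per library and lines through the geometric mean of each group, and the lower panel shows log2 fold changes from DMSO (± SE, orange for osi DTP and blue for osi DTP + AZD5153, filled where the adjusted p was under 0.05). Dotted lines separate the 5 clusters. All filled points lie in the last cluster, from 100.3 kb on, where the control line runs above both treated lines.

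The authors' peak lists, called in each library on its own, gave a second reading of the same libraries. At chr7:116772220-116772721, chr7:116773060-116773561, chr7:116774121-116774622 and chr7:116774849-116775350 a peak was listed in 3 of 3 DMSO libraries and in 0 of 6 treated libraries. At both regions of the MET start a peak was listed in all 9 libraries. Outside the gene, the 14 regions within 100 kb of the MET start that were assigned to other genes or none included 2 called ones, both assigned to LINC01510, a long non-coding RNA gene, at 96.1 and 95.3 kb upstream. The nearer of them had 18.9, 36.7 and 20.6 CPM in DMSO, 6.12, 5.29 and 3.63 in osi DTP and 5.11, 3.49 and 0.773 in osi DTP + AZD5153. Both fell in osi DTP (log2 fold change −2.08 and −2.34, adjusted p = 0.0339 and 0.0264, each lost in 6 of 9 leave-one-out fits) and in osi DTP + AZD5153 (−2.87 and −2.98, adjusted p = 0.00651 and 0.00610, lost in none).

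MST1R encodes RON, the other receptor of the MET family, and had log2 fold changes from DMSO below 0 at each of its regions in both treated groups. The gene lies on the minus strand of chromosome 3 (49887002 to 49903873), and its 6 regions ran from 4.6 kb inside it to 2.0 kb upstream. The highest promoter region, chr3:49903423-49903924, had 19.9, 28.1 and 26.4 CPM in DMSO, 11.7, 33.1 and 10.1 in osi DTP and 4.71, 6.98 and 25.3 in osi DTP + AZD5153. The high values of the treated groups came from replicate 2 of osi DTP and replicate 3 of osi DTP + AZD5153, and the groups overlapped. The log2 fold changes were −0.44 ± 0.65 (adjusted p = 0.740) and −1.02 ± 0.66 (0.309), and the second was −2.09 (adjusted p = 0.00590) without replicate 3 of osi DTP + AZD5153. The highest other region, chr3:49900980-49901481, 2.6 kb inside the gene, had 32.6, 44.8 and 33.1 CPM in DMSO, 23.2, 33.4 and 23.3 in osi DTP and 9.62, 18.6 and 21.6 in osi DTP + AZD5153. It was the only member region where osi DTP + AZD5153 lay below osi DTP without overlap, and its adjusted p against DMSO was 0.125, or 0.0254 without replicate 3.

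The calls at MST1R were upstream of the start. At chr3:49904570-49905071, a promoter region centred 0.9 kb upstream, CPM were 5.89, 6.71 and 9.55 in DMSO, 3.06, 1.11 and 4.13 in osi DTP and 0.601, 0.349 and 3.09 in osi DTP + AZD5153. Both treated groups lay below DMSO. The log2 fold change in osi DTP + AZD5153 was −2.55 ± 0.75 (adjusted p = 0.0270), and that in osi DTP was −1.40 ± 0.70 (0.216, or 0.0307 without replicate 3 of osi DTP + AZD5153). The call did not hold without DMSO replicate 2 (adjusted p = 0.0757), DMSO replicate 3 (0.101), replicate 1 of osi DTP + AZD5153 (0.0997) or replicate 2 of that group (0.0660), and without replicate 3 of that group the change was −3.91 (0.000135).

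At chr3:49905639-49906140, 2.0 kb upstream, the values were 12, 14 and 12.7 CPM in DMSO, 4.49, 4.04 and 5.84 in osi DTP and 1.40, 3.49 and 4.45 in osi DTP + AZD5153. Each control was more than the highest treated library. The log2 fold change was −2.07 ± 0.57 in osi DTP + AZD5153 (adjusted p = 0.0186, or 0.0800, 0.0677 and 0.101 without replicate 2 of DMSO, replicate 3 of DMSO and replicate 1 of osi DTP + AZD5153) and −1.42 ± 0.55 in osi DTP (0.103, or 0.0147 without replicate 3 of osi DTP + AZD5153). The 6 regions summed to 98.6 ± 13.3 CPM in DMSO (mean ± SD, n = 3), 60.7 ± 17.1 in osi DTP and 39.3 ± 23.5 in osi DTP + AZD5153. In the last group this was 19.7 and 32.9 in replicates 1 and 2 and 65.3 in replicate 3. All 6 log2 fold changes were below 0 in each comparison. Against osi DTP they ran from −1.15 to −0.31, with none called. Within 100 kb of the start, 15 tested regions lay outside MST1R and were assigned to other genes or none. Of these, 1 was called, a region of UBA7 at 90.1 kb that rose in osi DTP + AZD5153 (1.59, adjusted p = 0.0427, background 9.05% higher).

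**Figure D3:**
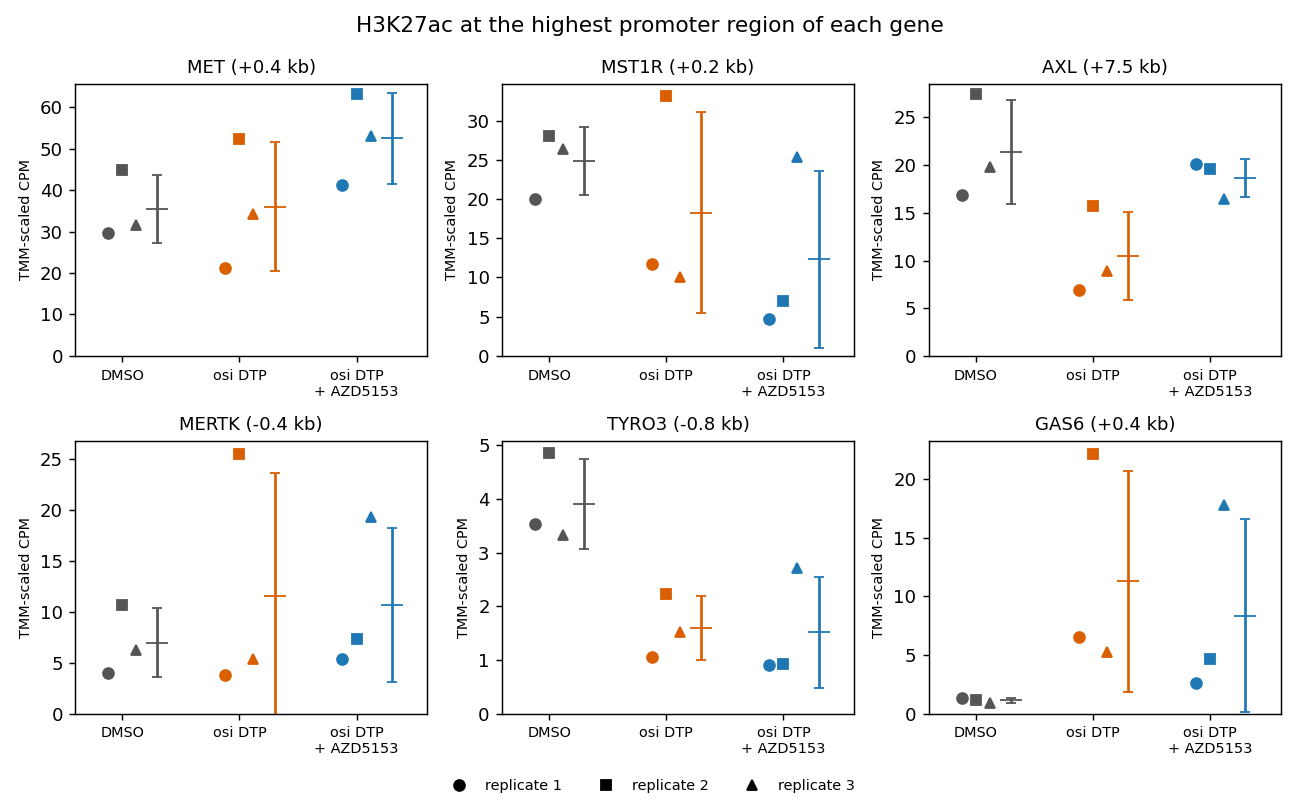
TMM-scaled CPM (y axis, from 0) at the highest promoter region of each of the 6 genes in the 3 groups (x axis), with a symbol per replicate and the mean ± SD beside them, error bars ending at 0 where they would pass it. The distance from the RefSeq start is in each title. At GAS6 the 3 controls sit at 0.905 to 1.36 and all 6 treated libraries above them, at MET the groups overlap, and at MST1R replicate 2 of osi DTP and replicate 3 of osi DTP + AZD5153 lie apart from their groups.

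AXL, a TAM receptor linked to tolerance of EGFR inhibitors, had no called region in any comparison. The gene lies on the plus strand of chromosome 19 (41219223 to 41261766), and its 9 regions covered the first 7.5 kb, with 6 of them at promoters of annotated starts. The highest promoter region, chr19:41226460-41226961, had 16.9, 27.5 and 19.8 CPM in DMSO, 6.88, 15.7 and 8.86 in osi DTP and 20.1, 19.6 and 16.4 in osi DTP + AZD5153. All osi DTP libraries lay below both other groups, which overlapped each other. The log2 fold changes were −1.03 ± 0.52 in osi DTP (adjusted p = 0.227), −0.19 ± 0.52 in osi DTP + AZD5153 (0.842) and 0.84 ± 0.52 between the treated groups (adjusted p = 1). The highest region outside promoters, chr19:41223167-41223668, gave −0.48 (0.630) and 0.10 (0.925) from DMSO, and the sign of the second differed between fits.

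The start of AXL itself showed another pattern. At chr19:41219195-41219696 CPM were 6.26, 5.06 and 4.53 in DMSO, 3.44, 15.4 and 3.93 in osi DTP and 5.21, 5.24 and 27.8 in osi DTP + AZD5153. The 2 high values came from the libraries with the highest promoter shares, and the part of that share was not tested. Summed over its 6 promoter regions, AXL had 66.4 ± 8.57 CPM in DMSO, 50.8 ± 25.6 in osi DTP and 90.1 ± 27.7 in osi DTP + AZD5153 (mean ± SD, n = 3). In osi DTP + AZD5153 against osi DTP all 9 log2 fold changes were above 0, from 0.41 to 1.09, and 8 of 9 were without replicate 3 of osi DTP + AZD5153. A peak was listed in all 9 libraries at 8 of the 9 regions and in 8 libraries at the remaining one.

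MERTK, a TAM receptor best known for the clearance of dying cells, fell at 1 region of its 3′ part in osi DTP. The gene spans 111898607 to 112029561 on the plus strand of chromosome 2, and its 13 regions ran from 0.4 kb upstream of the start to 135.5 kb, past the gene's end. The called region, chr2:112021853-112022354, 123.5 kb from the start, had 8.16, 11.5 and 10.7 CPM in DMSO, 3.44, 2.09 and 2.42 in osi DTP and 8.02, 9.19 and 4.06 in osi DTP + AZD5153. The osi DTP libraries lay below all others, and those given AZD5153 lay between them and the controls or among the controls. The input had 25 counts here, or 13.4 CPM without TMM scaling, above all 9 libraries. The log2 fold change was −1.92 ± 0.55 in osi DTP (adjusted p = 0.0336) and −0.50 ± 0.53 in osi DTP + AZD5153 (0.561). The call was lost without any 1 of the 6 libraries compared, with adjusted p of 0.0665, 0.157 and 0.129 for replicates 1 to 3 of DMSO and 0.0852, 0.126 and 0.149 for those of osi DTP.

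Its neighbour, chr2:112021250-112021751, had 3.99, 5.47 and 4.63 CPM in DMSO, 1.43, 1.39 and 1.21 in osi DTP and 6.31, 4.42 and 1.74 in osi DTP + AZD5153. Here too the input, 7.48 CPM without TMM scaling, was above all 9 libraries. This neighbour did not pass the test in osi DTP (−1.79 ± 0.59, adjusted p = 0.0597), except without replicate 3 of osi DTP + AZD5153 (0.00527). Between the treated groups the log2 fold changes of the pair were 1.64 ± 0.60 and 1.42 ± 0.55, both with an adjusted p of 1 and an unadjusted p of 0.0131 and 0.0185. A peak was listed in 3 of 3 DMSO libraries at both regions, in 0 of 3 osi DTP libraries at both, and in 2 and 3 of 3 libraries of osi DTP + AZD5153. The 4 regions at 74.7 to 77.0 kb had a summed CPM of 33.2 ± 13.5 in DMSO, 12.7 ± 3.30 in osi DTP and 13.3 ± 10.3 in osi DTP + AZD5153 (mean ± SD, n = 3), with none called on all 9 libraries. The region at 77.0 kb was called lower in osi DTP without replicate 3 of osi DTP + AZD5153 (−1.74, adjusted p = 0.00839).

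At the MERTK start, the highest promoter region, chr2:111897932-111898433, had 3.99, 10.6 and 6.24 CPM in DMSO, 3.82, 25.5 and 5.34 in osi DTP and 5.41, 7.33 and 19.3 in osi DTP + AZD5153. Replicate 2 of osi DTP and replicate 3 of osi DTP + AZD5153 again stood above the other 7 libraries. The log2 fold changes of 0.72 ± 0.72 and 0.61 ± 0.72 from DMSO did not pass the test (adjusted p = 0.590 and 0.612), and the second became −0.13 without replicate 3. The highest region outside promoters, chr2:112032771-112033272, in intergenic sequence past the gene, gave −0.59 (0.652) and −0.20 (0.874).

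TYRO3, the remaining TAM receptor, had the lowest mean of the 6 genes at its highest promoter region over the 9 libraries, at the 0.236 percentile of genes with a promoter region. In DMSO alone the mean was 3.90 CPM, and that of GAS6 was lower, at 1.13 CPM. Its promoter region, chr15:41558131-41558632, lies 0.8 kb upstream of the start of this plus-strand gene on chromosome 15 (41559212 to 41583589). CPM were 3.54, 4.85 and 3.32 in DMSO, 1.05, 2.23 and 1.51 in osi DTP and 0.902, 0.931 and 2.71 in osi DTP + AZD5153. All 6 treated libraries lay below the 3 controls. The input had 9 counts here, or 4.81 CPM without TMM scaling, about the level of the highest control. A peak was listed in 3 of 3 controls and in 0 of 6 treated libraries. The log2 fold changes were −1.30 ± 0.62 (adjusted p = 0.198) and −1.41 ± 0.64 (0.133), and the second was −2.08 (adjusted p = 0.00993) without replicate 3 of osi DTP + AZD5153. The other TYRO3 region, past the gene's end at chr15:41585088-41585589, had 14.8 CPM in replicate 2 of osi DTP and 12.4 in replicate 3 of osi DTP + AZD5153 and 1.51 to 4.85 in the other 7 libraries.

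GAS6, the ligand of the 3 TAM receptors, rose at its promoter in both treated groups from a level near the background. The gene lies on the minus strand of chromosome 13 (113820549 to 113864076). Its highest promoter region, chr13:113863402-113863903, 0.4 kb inside the gene, had 1.36, 1.14 and 0.905 CPM in DMSO (15, 11 and 9 counts). It had 6.5, 22.1 and 5.24 CPM in osi DTP (68, 159 and 52 counts) and 2.6, 4.65 and 17.8 in osi DTP + AZD5153 (26, 40 and 92 counts). All treated libraries lay above the controls, with replicate 2 of osi DTP and replicate 3 of osi DTP + AZD5153 the highest. The input had 3 counts here, or 1.60 CPM without TMM scaling, and no control was above that. The called MERTK region and the MET regions at 38.9 and 44.4 kb, given above, also had an input above every control. At the called MET regions starting at 116774121, 116774849 and 116779164 the order was not certain. The strongest MET falls had an input below every control. At the region starting at 116772220, input without TMM scaling was 11.22 CPM, against 14.15 to 32.53 CPM in DMSO. At the one starting at 116773060 it was 9.62, against 10.25 to 17.97.

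The log2 fold change at this region was 3.29 ± 0.79 in osi DTP (adjusted p = 0.0151) and 2.84 ± 0.78 in osi DTP + AZD5153 (0.0190). The first of these had an adjusted p of 0.0533, 0.0937 and 0.0872 without replicates 1, 2 and 3 of DMSO and 0.0934 without replicate 2 of osi DTP, where the change was 2.41. For the second it was 0.0594, 0.0877 and 0.0935 without replicates 1, 2 and 3 of DMSO, and without replicate 3 of osi DTP + AZD5153 the change was 1.65 (adjusted p = 0.0347).

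The adjoining region, chr13:113862847-113863348, 1.0 kb inside the gene, had 1.18, 0.723 and 0.402 CPM in DMSO, 5.16, 17.8 and 4.93 in osi DTP and 2.30, 3.26 and 21.3 in osi DTP + AZD5153. The groups were ordered as at the first region. The log2 fold changes were 3.56 ± 0.88 (adjusted p = 0.0173) and 3.49 ± 0.88 (0.0125), and the second was 1.82 (0.0282) without replicate 3 of osi DTP + AZD5153. With the replicate number as a block, the adjusted p in osi DTP was 0.0525 here, and this call was lost. It was also lost without replicate 2 of DMSO (0.103), replicate 3 of DMSO (0.0979) or replicate 2 of osi DTP (0.102, change 2.74), and the call in osi DTP + AZD5153 was lost without replicate 2 or 3 of DMSO (0.0697 and 0.0719). A peak was listed at both regions in 0 of 3 controls and in 6 of 6 treated libraries.

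Upstream of the start, the region chr13:113864207-113864708, which covers part of the GAS6 sequence printed above and was assigned to the divergent transcript GAS6-DT, had 0.998, 0.929 and 0.402 CPM in DMSO, 4.30, 6.12 and 4.93 in osi DTP and 2.00, 5.24 and 6.57 in osi DTP + AZD5153. This region rose too, and here replicate 2 of osi DTP was close to its replicates. Its log2 fold changes were 2.69 ± 0.64 (adjusted p = 0.0144, lost in 3 of 9 leave-one-out fits) and 2.53 ± 0.64 (0.0126, lost in 2). In all, 36 regions tested lay outside the gene within 100 kb of the start and were assigned to other genes or none. In osi DTP 6 of these rose and 1 fell (background 5.58% and 5.13%), and in osi DTP + AZD5153 7 rose and 2 fell. With replicate 3 of osi DTP + AZD5153 left out, 37 such regions were tested, 11 rose and 2 fell in osi DTP (background 14.2% and 12.7%), and 8 rose and 3 fell in osi DTP + AZD5153 (18.4% and 17.3%). Those that rose in both were the GAS6-DT region, 1 region of GAS6-AS1 at 50.0 kb downstream of the start, past the gene's end, and 4 regions of LINC00452 at 32.1 to 39.8 kb upstream, with log2 fold changes of 2.18 to 3.67 in osi DTP and 1.89 to 3.41 in osi DTP + AZD5153. Each of these calls was lost in 1 to 5 of the 9 fits in osi DTP and in 0 to 5 in osi DTP + AZD5153. The falls were at TMEM255B, 91.5 and 92.1 kb downstream of the start.

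Further inside GAS6, 4 regions at 23.9 to 26.5 kb lay 1 to 3 kb from an inner start site or in an exon, and none was called. The highest, chr13:113837358-113837859, had 12, 18.4 and 15.2 CPM in DMSO, 13.2, 32.6 and 16.1 in osi DTP and 11.6, 14.5 and 25.9 in osi DTP + AZD5153, with overlapping groups. Its log2 fold changes of 0.44 and 0.19 had adjusted p of 0.682 and 0.854, and the sign of the second differed between fits. The other 3 had log2 fold changes of 1.26 to 1.80 in osi DTP (adjusted p = 0.173 to 0.210), with all 3 above DMSO without overlap (background 20.2%), and they were called in osi DTP without replicate 3 of osi DTP + AZD5153.

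**Figure D4:**
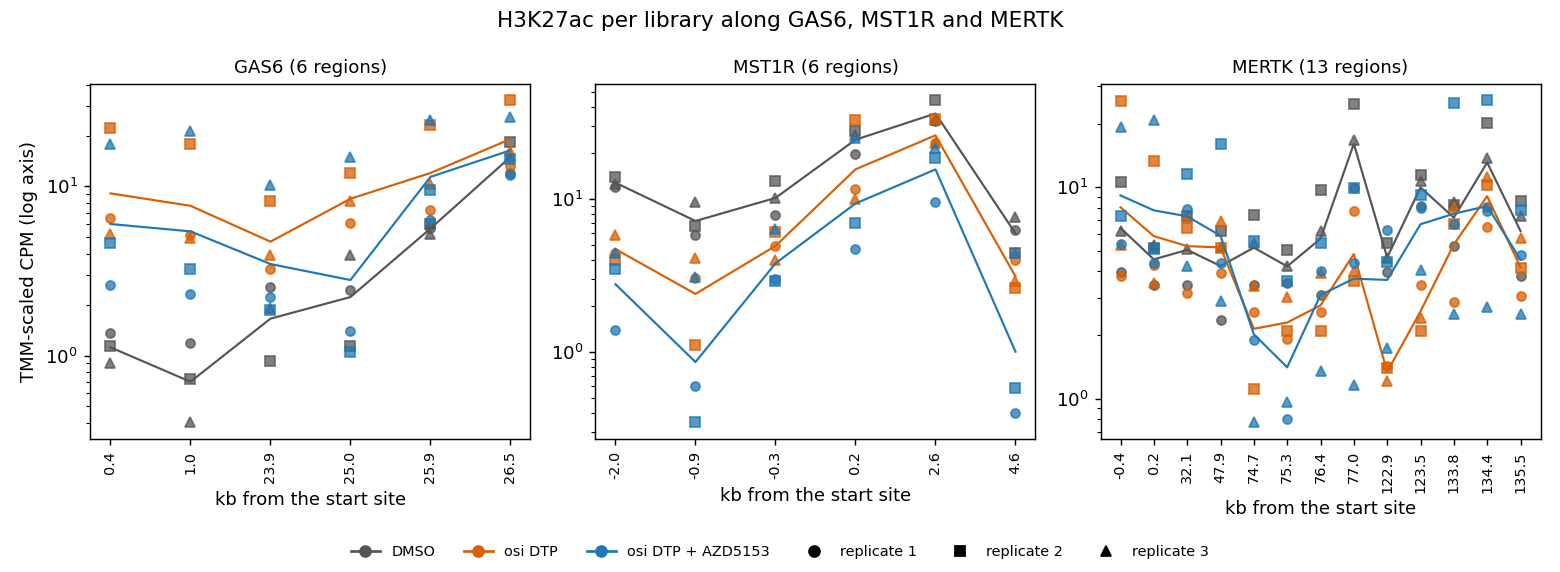
TMM-scaled CPM (log y axis) per library at the regions of GAS6, MST1R and MERTK in order of distance from the RefSeq start (x axis, kb, evenly spaced, negative upstream). Symbols mark replicates and lines join geometric means of the groups. The DMSO line is the lowest of the 3 at all 6 GAS6 regions and the highest at all 6 MST1R regions, and the osi DTP line dips at 122.9 and 123.5 kb of MERTK.

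When the counts of each gene were summed over its promoter regions and over its other regions, giving 12 sums for the 6 genes, only the GAS6 promoter sum was called. It was 2.54, 1.86 and 1.31 CPM in DMSO, 11.7, 39.9 and 10.2 in osi DTP and 4.91, 7.91 and 39.0 in osi DTP + AZD5153. The treated libraries were all above the controls. The log2 fold change was 3.42 ± 0.82 in osi DTP (adjusted p = 0.0145 over 21677 sums, of which 9.57% were called and 4.97% were higher) and 3.16 ± 0.81 in osi DTP + AZD5153 (0.0153, with 14.5% of all sums called, 7.79% higher and 6.74% lower), and none of the 12 was called between the treated groups (background 0%). With the replicate block the adjusted p was 0.0858 in osi DTP and 0.113 in osi DTP + AZD5153, and both calls were lost. Without replicate 2 or 3 of DMSO, 0 of the 12 sums were called in either comparison with DMSO, and without replicate 2 of osi DTP 0 were called in osi DTP. Without replicate 3 of osi DTP + AZD5153 the sum changed by 1.73 in that group (adjusted p = 0.0539) and was not called. The same fit then called the lower MST1R promoter sum (−2.21, adjusted p = 0.00490), the MST1R sum of other regions (−1.72, 0.0114) and the TYRO3 promoter sum (−2.08, 0.00870), and 21.3% of all sums (9.3% lower).

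Over the 64 regions, a peak was listed at 57, 59 and 60 in DMSO, at 42, 44 and 55 in osi DTP and at 47, 51 and 35 in osi DTP + AZD5153. The list recorded for replicate 3 of osi DTP, with 55, names another line, H1875, where the sample's labels say H1975, and the labels were followed. Counts of treated libraries with a peak include this list. Every region had a peak in at least 1 library and 22 had one in all 9. The lists held 54188 to 70227 peaks per library. Input counts had a median of 13.5 over the 64 regions, against 13 over all annotated regions and 10 over all regions. They differed between the genes: the median was 18 at MET, where 27 of 28 regions were at or above the median of all regions, 14.5 at MST1R, 13 at MERTK, 9 at GAS6, 9 at TYRO3 and 5 at AXL, where none of 9 reached it. Copy number was not measured, and its part in the levels was not tested.

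Other genes of the same pathways were read from the same fit. Of 15 genes that act with MET and RON (ligands, activating proteases and their inhibitors, partner receptors, adaptors and negative regulators), 13 had annotated regions, and HGF and MST1, the genes of the receptors' ligands, had none. Their 87 regions included 7 higher and 2 lower in osi DTP (10.3%, against 10.7% of all regions) and 4 higher and 4 lower in osi DTP + AZD5153 (9.2%, against 18.1%), with medians of 0.10 and 0.05. With replicate 3 of osi DTP + AZD5153 left out, the counts were 21 higher and 20 lower in osi DTP (47.1%, against 26.8% of all regions). In osi DTP + AZD5153 they were 15 and 11 (29.9%, against 35.7%). Of annotated regions, 14.2% and 21.8% were called on all 9 libraries, and 31.5% and 36.3% without that replicate. On all 9 libraries, most of the higher regions in each treated group were regions of a single gene, LRIG1. LRIG1, a negative regulator of receptor tyrosine kinases, had the strongest call, at an intronic region on chromosome 3 (66482778 to 66483279), with 1, 1 and 4 counts in DMSO, 16, 11 and 24 in osi DTP and 67, 47 and 16 in osi DTP + AZD5153. It rose by 3.13 ± 0.76 (log2, adjusted p = 0.0154, lost in 3 of 9 leave-one-out fits, with 0.104 without replicate 2 of DMSO) and by 4.61 ± 0.76 (0.00161, lost in none). CD44, a partner receptor, fell at an intronic region in osi DTP (−1.92, 0.0324), and PLXNB1, a semaphorin receptor that pairs with MET, rose at its promoter (2.65, 0.0432, or 0.0713 with the replicate block). CBL, a ubiquitin ligase that marks receptors for degradation, fell in osi DTP + AZD5153 at an intronic region (−2.51, 0.00806), and CD44 fell at a region 1 to 2 kb from a start site (−2.14, 0.0241), while HPN, a protease that activates hepatocyte growth factor, rose at its promoter (1.94, 0.0286). HGFAC, the other activating protease with a call, fell in osi DTP + AZD5153 at a region classed as intronic (−1.91, 0.0484, or 0.169 without replicate 2 of DMSO). The adjusted p without 1 library reached 0.0514 for CBL, 0.158 for CD44 in osi DTP, 0.0840 for CD44 in osi DTP + AZD5153 (each without replicate 2 of DMSO), 0.215 for PLXNB1 (without replicate 2 of osi DTP) and 0.123 for HPN (without replicate 1 of DMSO).

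Of 12 genes around the TAM receptors, 11 had regions, and VKORC1, which recycles vitamin K, had none. Their 63 regions included 4 higher and 2 lower in osi DTP (9.52%, against 10.7% of all regions) and 5 higher and 2 lower in osi DTP + AZD5153 (11.1%, against 18.1%). The medians were 0.53 and 0.56, against 0.15 and 0.23 over all regions. With replicate 3 of osi DTP + AZD5153 left out, 15.9% and 23.8% were called, against 26.8% and 35.7% of all regions. Of annotated regions, 14.2% and 21.8% were called on all 9 libraries, and 31.5% and 36.3% without that replicate. On all 9 libraries, most of the higher regions in each treated group were regions of a single gene, PIK3R1. PIK3R1, the regulatory subunit of PI3K, rose at an intronic region on chromosome 5 (68264595 to 68265096) from 6, 6 and 2 counts in DMSO to 162, 87 and 136 in osi DTP and 207, 126 and 41 in osi DTP + AZD5153, by 4.88 ± 0.68 (adjusted p = 0.00273) and 4.95 ± 0.68 (0.00114), and both calls were kept in all 9 fits. NCK2, an adaptor protein, fell at an intronic region on chromosome 2 (105919717 to 105920218) from 85, 131 and 57 counts to 15, 6 and 3 and to 1, 2 and 1, by −3.36 ± 0.67 (adjusted p = 0.00658, or 0.0664 without replicate 2 of DMSO) and −5.61 ± 0.81 (0.00121). SOCS3, an inhibitor of cytokine signalling, fell at a region classed as intronic, 24769 bp from its annotated start (−2.42, 0.0190, and −3.37, 0.00328). ADAM17, a protease that sheds AXL and MERTK from the cell surface, rose at a distal region (2.28, 0.0261, and 2.79, 0.00677). Without replicate 2 of DMSO the adjusted p in osi DTP was 0.113 for SOCS3 and 0.141 for ADAM17, and that of ADAM17 in osi DTP + AZD5153 was 0.0542.

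Promoter regions of other genes with the most similar pattern over the 9 libraries were found by Pearson's r of log2(CPM + 1), among 11592 genes with a mean of at least 5 CPM. For GAS6 they were TNFSF13 (0.986), FSTL3 (0.984) and GCNT4 (0.983), and for MERTK COG3 (0.996), TRIM13 (0.995) and MTIF3 (0.992). For MST1R they were TNS4 (0.988), ITGA5 (0.986) and KCTD1 (0.984), for AXL HCAR1 (0.974), PAN2 (0.969) and LOC339803 (0.947), for TYRO3 MIR4653 (0.975), TGFA (0.964) and RDH11 (0.956), and for MET ZBTB38 (0.966), XRCC5 (0.965) and KLHL3 (0.955). These values describe 9 points that share library and depth, including replicate 2 of osi DTP and replicate 3 of osi DTP + AZD5153, whose promoter shares were the highest.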

How the data were processed

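H3K27ac ChIP-seq was analysed in 9 libraries of H1975 cells (3 groups of 3, grouped by sample title) with 1 pooled input. The authors deposited read counts per region of 502 bp without normalization, and, for part of the regions, the same counts with a gene symbol, annotation class and distance to a start site. The counts of the 64 member regions were equal in both tables. They also deposited a peak list per library with fold enrichment as a ratio and p and q as −log10 values, called per library. The submitters' processing notes name hg38, BWA 0.7.17, MACS2 2.2.6, featureCounts 2.0.0 and ChIPseeker 1.29.1, and their settings are not given in the sources used here. The assignment to a gene follows the nearest annotated start, so a region within 1 gene can act on another. Cells came from a single line, and reads were 75 nt and single-end. Counts of 1 read per position and strand would be limited to 1152 per region, and the highest member count was 640.

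The test was that of edgeR 4.0.16, run with limma 3.58.1 in R 4.3.3 over the whole table: filterByExpr at its defaults (minimum count 10), TMM scaling, and a single robust quasi-likelihood fit of the 9 libraries with a mean per group. This tested 157919 regions. Benjamini-Hochberg adjustment was made over all of these, calls had an adjusted p under 0.05, and SE was taken from the fold change and its F statistic. CPM were scaled with TMM. Fits were tested on simulated data. These had the same spread at every region and no library that stood apart, so they do not give the error rate in the real libraries. Peaks were matched by an overlap of at least 1 bp. Promoter windows came from RefSeq (GRCh38.p14), which held all 6 genes (8 windows), and no genome sequence was used here. Of 2750 overlapping windows on opposite strands, all had matching sequence when read on 1 strand.

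Same-numbered libraries of osi DTP and DMSO deviated together from their group means across regions (Pearson correlation 0.358, 0.373 and 0.354, each over 0.1), so these numbers paired the libraries under the rule used. What a number marks is not given by the labels. The test was run without the replicate block, and its blocked value is given where a call changed.

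The members, the gene lists, tests and alternatives were chosen with earlier results of these data known. Named regions were, per gene, the highest promoter region and the highest other region by mean CPM, with called regions, at most 4 per gene and comparison in order of adjusted p, and pathway genes with a called region under the same limit. Regions described beyond this rule, such as chr7:116774121-116774622, were chosen after their values were seen. Alternatives were DESeq2 1.42.0, no TMM, a loess offset (span 0.3), no filter, the annotated regions on their own, a fit without the group not compared, the replicate block, counts corrected for saturation, and leaving out each library in turn. For peaks they were a −log10 q of at least 5 and cover of 50% of the region.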

Additional observations from a re-analysis of the deposited data

How the results depend on the processing

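Regions are given here by gene and start position on hg38, and values are log2 fold changes. No call on a named region changed direction under any alternative. Of the 5 called named regions in osi DTP against DMSO over 85 repeats, 66 kept their call and 19 lost it. Of the 9 in osi DTP + AZD5153 against DMSO over 153 repeats, 113 kept it and 40 lost it. Sign changes were seen 10, 35 and 19 times, all at regions that were not called, in osi DTP against DMSO, osi DTP + AZD5153 against osi DTP and osi DTP + AZD5153 against DMSO. The cause of these changes was not tested.

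In osi DTP against DMSO, DESeq2 called 11 of the 64 regions (2 higher and 9 lower, with 17.7% of all regions called), and the fit on the libraries of both groups alone called 18 (5 and 13, with 26.4%). The fits without 1 library gave 0 to 18 regions and 0 to 2 gene sums, and the replicate block gave 0 gene sums. For osi DTP + AZD5153 against DMSO, the libraries of both groups alone gave 5 regions (2 and 3, with 11.4% of all regions called) and the replicate block 4 (0 and 4, with 17.5%). Gene sums numbered 2 with DESeq2, 3 without TMM and 0 with the replicate block (19.8%, 16.3% and 12% of all sums), and leaving out 1 library gave 2 to 18 regions and 0 to 3 gene sums. Between the treated groups both ranges were 0 to 0.

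The median over all regions moved with the scaling. In osi DTP against DMSO it was 0.15, or 0.06 without TMM and 0.05 with a loess offset, in osi DTP + AZD5153 against DMSO 0.23, −0.02 and 0.30, and between the treated groups 0.06, −0.09 and 0.22. Without replicate 3 of osi DTP + AZD5153 these medians were 0.15, −0.11 and −0.17.

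The sign of MET 116672375 in osi DTP against DMSO turned with DESeq2 (−0.0997), without TMM (−0.106), with the loess offset (−0.222), with the annotated regions on their own (−0.0239) and with the replicate block (−0.039), and leaving out 1 library gave −0.29 to 0.378. Against DMSO, osi DTP + AZD5153 at MET 116692277 gave −0.166 without TMM, −0.257 with loess, −0.0136 with annotated regions and −0.15 with the block, AXL 41223167 gave −0.122 without TMM and −0.016 with loess, and GAS6 113837358 gave −0.06 and −0.0192. Between the treated groups, the block gave −0.0287 at MET 116772220. DESeq2 and loess gave 0.0557 and 0.0749 at MET 116773060, 0.0239 and 0.236 at MERTK 111897932, 0.0195 and 0.111 at TYRO3 41558131 and 0.0743 and 0.212 at GAS6 113862847. Annotated regions gave 0.0882 at MERTK 111897932 and 0.0763 at GAS6 113862847, and the block gave 0.227 at MERTK 111897932.

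Leaving out 1 library also turned signs. In osi DTP against DMSO, MERTK 111897932 ran from −0.539 to 1.24 and TYRO3 41585088 from −0.0991 to 1.41. For osi DTP + AZD5153 against DMSO, MET 116692277 ran from −0.819 to 0.508, AXL 41223167 from −0.0683 to 0.305, AXL 41226460 from −0.352 to 0.0329, MERTK 111897932 from −0.132 to 1.05, MERTK 112032771 from −1.41 to 0.256, TYRO3 41585088 from −0.879 to 0.948 and GAS6 113837358 from −0.22 to 0.389. Between the treated groups, MET 116692277 ran from −0.436 to 0.895, MET 116772220 from −0.641 to 0.666, MET 116773060 from −0.921 to 0.284, MET 116774121 from −1.28 to 0.0645, MET 116779164 from −1.48 to 0.13, MST1R 49903423 from −1.64 to 0.136, MERTK 111897932 from −0.849 to 1.18, MERTK 112032771 from −0.818 to 0.849, TYRO3 41558131 from −0.774 to 0.152, TYRO3 41585088 from −1.80 to 0.647, GAS6 113837358 from −0.657 to 0.208, GAS6 113862847 from −1.73 to 0.767 and GAS6 113863402 from −1.63 to 0.456.

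Replicate numbers did not pair the libraries of osi DTP + AZD5153 and DMSO (correlations 0.005, 0.534 and 0.337), nor did they between the treated groups (0.296, −0.049 and −0.305). With the block, the adjusted p against DMSO was 0.0750 at MET 116774121, 0.0546 at MET 116779164, 0.0560 at MET 116774849, 0.0638 at GAS6 113862847 and 0.0595 at GAS6 113863402. The call at MET 116774121 lay at the threshold and was lost under each alternative but DESeq2 and 3 of the 9 fits without 1 library, and the calls at MST1R 49904570 and 49905639 were lost with the libraries of both groups alone (0.0608 and 0.0519). Peaks stood at 64 regions in at least 1 library under both peak alternatives, and in all 9 libraries at 21 with cover of 50% and at 19 with the stricter q. With 3 libraries a group, low regions such as GAS6 in the controls (9 to 15 counts) limit the precision of a fold change.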

Other observations

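Some regions inside or near these genes carry no gene symbol or that of a neighbour, and were chosen for mention after their values had been seen. Inside MERTK, chr2:112014930-112015431, 116.6 kb from the start and with no gene assigned, had 1.81, 3.72 and 3.42 CPM in DMSO, 0.956, 0.139 and 0.504 in osi DTP and 0.501, 0.465 and 0 in osi DTP + AZD5153. It fell by 3.03 on the log2 scale in osi DTP + AZD5153 (edgeR adjusted p = 0.0271, lost in 3 of 9 leave-one-out fits) and gave −2.41 in osi DTP (0.0752). Inside GAS6, chr13:113860673-113861174, 3.2 kb from the start, rose by 2.40 ± 0.75 in osi DTP + AZD5153 (adjusted p = 0.0352, or 0.150 without replicate 3 of this group) and gave 2.32 ± 0.75 in osi DTP (0.0543). A region of RPAP1, the neighbour of TYRO3, 12 kb upstream of the TYRO3 start, fell by 1.99 in osi DTP + AZD5153 (adjusted p = 0.0317, lost in 5 of 9 leave-one-out fits). At the TYRO3 start itself, chr15:41559333-41559834, without an assigned gene, gave −1.54 ± 0.68 in osi DTP + AZD5153 (adjusted p = 0.125, or 0.0144 without replicate 3 of this group) and −0.95 in osi DTP (0.394), and passed no test on all 9 libraries.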
